A study of Mus musculus with 4 samples.

Results

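Glypicans and syndecans are the main families of membrane-bound heparan sulfate proteoglycans. The 10 mouse genes, 6 glypicans (Gpc1 to Gpc6) and 4 syndecans (Sdc1 to Sdc4), were taken by symbol from 33565 annotated genes. The set was chosen by measured values: earlier looks at these data had shown a different paralog in the lead in each cell line, with Gpc6 high in N2a and missing from some NIH/3T3 cells. The order of the paralogs and the Gpc6 pattern are therefore described here and not tested.

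A single CapSeq experiment, in which cells are held in hydrogel capsules and barcoded by split-pool steps, supplied the data. N2a (Neuro-2a, a mouse neuroblastoma line) and NIH/3T3 (mouse embryonic fibroblasts) were grown in medium with 10% fetal bovine serum. The mESCs (E14TG2a) were kept on gelatin in medium with 15% serum, leukemia inhibitory factor, 3 µM of the GSK3 inhibitor CHIR99021 and 1 µM of the MEK inhibitor PD0325901. None of the lines carried an experimental treatment beyond its own medium, so line and medium cannot be told apart. Each line was 1 sample, set apart from the others by its own columns of the first barcoding plate (BC1) before the cells were pooled. Line and plate columns therefore cannot be told apart either. The 32 wells of a line are technical parts of that sample and not replicates.

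A cell was kept when it had 1000 or more UMIs, of which mitochondrial genes took 20% or less. This left 2323 N2a, 2037 NIH/3T3 and 2137 mESC cells. These held 17955221, 11697865 and 12322098 UMIs, with medians of 6185, 4863 and 4803 UMIs per cell. The lines shared 0 cell barcodes, which follows from the split of the reads by the first barcode and is no check of it. All 7 pluripotency markers were highest in mESCs, 6 of 7 fibroblast markers in NIH/3T3 (Fn1 was higher in mESCs) and 5 of 7 sympathoadrenal markers in N2a, where Dbh was below 1 CPM and Gata3 was lower than in mESCs. A low background of other lines' transcripts was present in every line: Hand2, at 404 CPM in N2a, read 1.79 CPM in mESCs and 1.11 CPM in NIH/3T3. Levels are given in CPM, a gene's share of all UMIs of a line's kept cells scaled to 1000000. Brackets hold exact Poisson or Clopper-Pearson 95% intervals, and both cover counting error only.

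Glypicans are attached to the outer leaflet of the plasma membrane by a glycosylphosphatidylinositol (GPI) anchor, whereas syndecans span the membrane and carry a short cytoplasmic tail that binds PDZ proteins. Both bear heparan sulfate chains that hold growth factors and morphogens such as FGF, Wnt, Hedgehog and BMP proteins near their receptors. Different tissues use different paralogs, and loss of GPC3 function causes the overgrowth disorder Simpson-Golabi-Behmel syndrome in humans.

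On GRCm39 with GENCODE M39, the 6 glypican genes lie at 4 places. Gpc5 (chr14:115329647-116762591) and Gpc6 (chr14:117162727-118216940) follow each other on the plus strand with 400135 bases between them and span 1432945 and 1054214 bases. Gpc4 (chrX:51139255-51254262) and Gpc3 (chrX:51361303-51703137) are neighbours on the minus strand, 107040 bases apart. Gpc1 (chr1:92759062-92792113, plus) and Gpc2 (chr5:138271917-138278288, minus) stand alone. The syndecans are on 4 chromosomes: Sdc1 at chr12:8820854-8843725 (plus), Sdc2 at chr15:32920699-33035213 (plus), Sdc3 at chr4:130519826-130556217 (plus) and Sdc4 at chr2:164266025-164285807 (minus). Gpc2 overlaps a longer annotated locus on its own strand (Gm43720), so its count is uncertain, and Gpc1 overlaps the 3′ part of Ankmy1 on the opposite strand.

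The 250 bases before the most upstream annotated start of Gpc1 and Gpc4, the leading glypicans of NIH/3T3 and mESCs, and of Sdc2, the leading syndecan of NIH/3T3, are printed 5′ to 3′ on the strand of the gene. Which start site these cells use was not measured. They were read from GRCm39 and hold no annotated exon. Capitals mark the GC box (GGGCGG or CCGCCC, so both strands were searched). The windows are Gpc1, chr1:92758812-92759061 (plus), Gpc4, chrX:51254263-51254512 (minus), and Sdc2, chr15:32920449-32920698 (plus).
Gpc1: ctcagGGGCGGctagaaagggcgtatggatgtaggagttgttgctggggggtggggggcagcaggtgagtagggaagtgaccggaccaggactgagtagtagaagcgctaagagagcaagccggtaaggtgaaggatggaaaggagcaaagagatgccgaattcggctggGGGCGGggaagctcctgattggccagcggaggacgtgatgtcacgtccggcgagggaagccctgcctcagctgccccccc
Gpc4: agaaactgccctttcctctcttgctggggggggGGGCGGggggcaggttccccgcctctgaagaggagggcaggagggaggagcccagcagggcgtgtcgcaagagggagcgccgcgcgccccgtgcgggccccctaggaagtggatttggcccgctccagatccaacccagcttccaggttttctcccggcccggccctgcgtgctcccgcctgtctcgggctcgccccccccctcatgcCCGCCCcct
Sdc2: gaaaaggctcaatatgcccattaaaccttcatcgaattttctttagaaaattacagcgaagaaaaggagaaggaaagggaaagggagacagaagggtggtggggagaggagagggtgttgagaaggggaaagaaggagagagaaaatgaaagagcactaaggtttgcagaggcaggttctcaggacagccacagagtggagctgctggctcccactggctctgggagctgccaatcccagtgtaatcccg
The Gpc1 and Gpc4 windows each held 2 GC boxes, and the Sdc2 window held 0. Of 21770 protein-coding genes, 29.9% had a GC box in the same window. Gpc4 had 18 CpG dinucleotides, Gpc1 13 and Sdc2 3, beside a median of 6 over all windows. A letter match is a description and says nothing about which factors bind there.

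The lines differed in which glypican they used. In N2a, Gpc6 gave 22259 of 23571 glypican UMIs, 94.4% (94.1 to 94.7), and 91.9% after each gene was divided by its exonic length. In NIH/3T3, Gpc1 led with 73.7% (71.6 to 75.7) of 1843 glypican UMIs, or 71.7% per exonic base, and Gpc6 gave 25% (23 to 27). The mESCs had no such single paralog. Gpc4 gave 39.6% (37.9 to 41.2) of 3402 UMIs, Gpc6 33.0% (31.4 to 34.6) and Gpc3 18.3% (17.0 to 19.6), and per exonic base Gpc4 stayed first at 39.5% while Gpc3 (33.0%) passed Gpc6 (19.0%).

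The leading syndecan also differed. Sdc1 was 61.8% (58.4 to 65.2) of 802 syndecan UMIs in N2a and Sdc3 35.3% (32 to 38.7). Sdc2 was 69.9% (68.5 to 71.4) of 3924 in NIH/3T3, followed by Sdc1 at 18.9% and Sdc4 at 11%. In mESCs Sdc4 led with 45.7% (41.9 to 49.5) of 672 UMIs, and the other three lay between 13.7% and 21.3%. Per exonic base the leaders were the same 3 genes, at 75.6%, 54.5% and 62.6%.

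**Figure D1:**
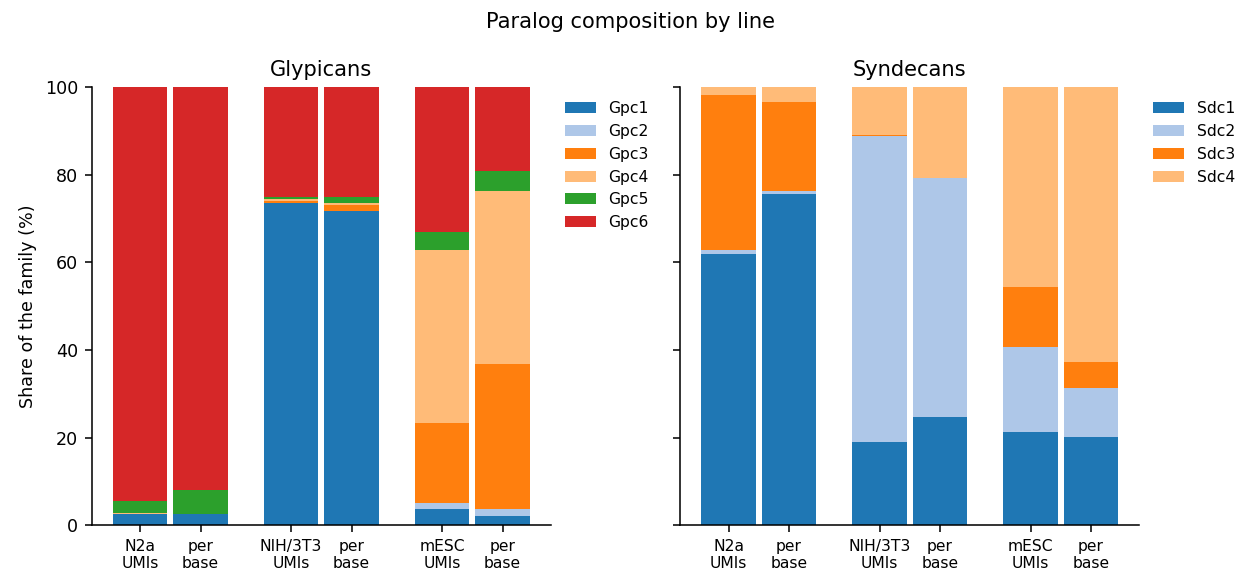
Share of each paralog (y axis, %) in the glypican (left) and syndecan (right) UMIs of each line, as counted and after division by exonic length ("per base"). Gpc6 fills 94.4% of the N2a glypican bar, Gpc1 73.7% of the NIH/3T3 bar, and Gpc4, Gpc6 and Gpc3 divide the mESC bar.

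The balance of the families went in opposite directions in N2a and NIH/3T3. Glypicans summed to 1313 CPM in N2a, 276 CPM in mESCs and 158 CPM in NIH/3T3. Syndecans summed to 335 CPM in NIH/3T3, 54.5 CPM in mESCs and 44.7 CPM in N2a. N2a thus had 29.4 glypican UMIs for each syndecan UMI, mESCs 5.06 and NIH/3T3 0.470. Without Gpc6 the ratio was 3.39 in mESCs, 1.64 in N2a and 0.352 in NIH/3T3, so mESCs then stood first.

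In mESCs 9 of the 10 members reached 5 CPM, all but Gpc2, while 5 did so in each of the other lines. The share of all genes that reached 5 CPM in each line is not given, so no excess is read from these counts. Members were counted as past the fold when CPM + 1 differed at least 4-fold and 1 of the 2 lines reached 5 CPM. Gpc5, Gpc6 and Sdc3 were higher in N2a than in NIH/3T3 (3 of 7 members tested, with 12.1% of 11812 genes going that way), and Sdc2 and Sdc4 were higher in NIH/3T3 (2 of 7, with 10.1% of genes). Between N2a and mESCs, Gpc6 was higher in N2a (1 of 9, with 11.1% of 12245 genes), and Gpc3, Gpc4, Sdc2 and Sdc4 were higher in mESCs (4 of 9, with 13.0%). Between NIH/3T3 and mESCs, Gpc1, Sdc1 and Sdc2 were higher in NIH/3T3 (3 of 9, with 10.5% of 12067 genes), and Gpc3, Gpc4, Gpc5 and Sdc3 were higher in mESCs (4 of 9, with 14.2%). The members were selected on these same contrasts, so nothing is read from their counts against the background. With 1 sample per line there is no replicate check and no test between lines.

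**Figure D2:**
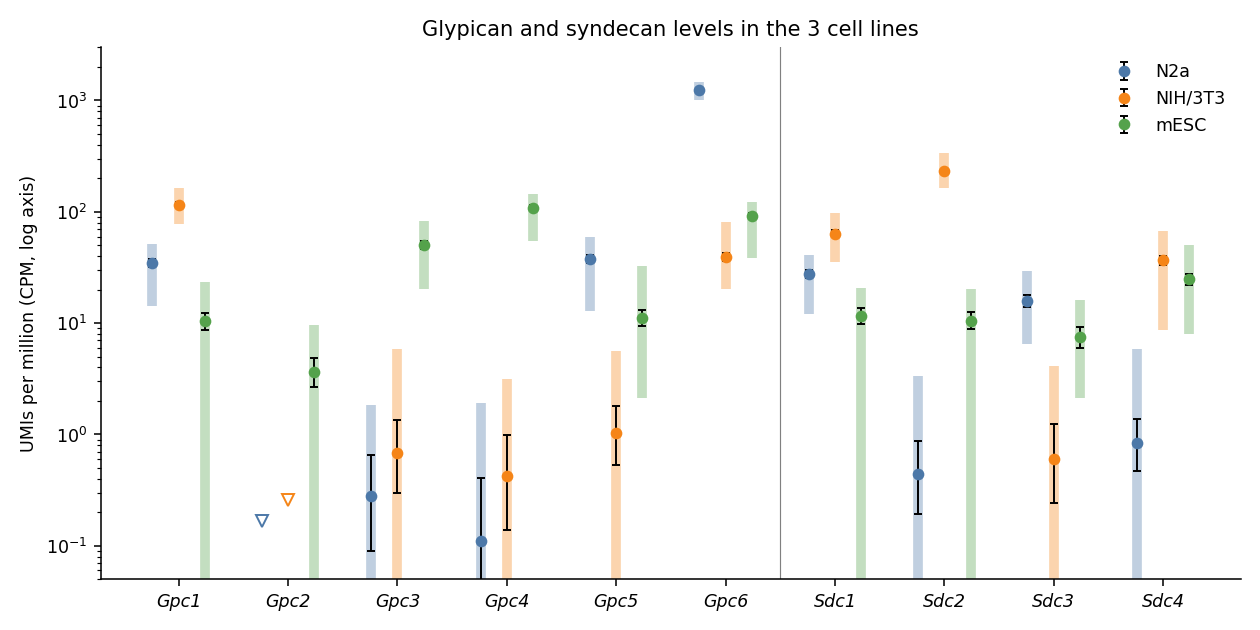
Level of each member (x axis) in CPM (y axis, log scale) in the 3 lines. Points are line values with 95% Poisson intervals, pale bars run from the lowest to the highest of 32 wells (drawn down to the axis where a well had 0 UMIs), and open triangles mark the level of 3 counts where a line had 0 UMIs. Gpc6 in N2a, at 1240 CPM, is the highest of the 30 points.

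Gpc6, a glypican known to promote synapse formation and endochondral bone growth, stood at 1240 CPM (1223 to 1256) in N2a, 91.1 CPM (85.9 to 96.6) in mESCs and 39.3 CPM (35.8 to 43.1) in NIH/3T3. The N2a level was above 99.8% of the genes detected in that line. Its 32 wells ran from 1001 to 1479 CPM, those of mESCs from 38.6 to 123 CPM and those of NIH/3T3 from 20.4 to 80.2 CPM, so N2a wells stood apart and the other two lines overlapped. The N2a level was 31.5 times (28.7 to 34.6) that of NIH/3T3 and 13.6 times (12.8 to 14.5) that of mESCs. Among 13000 genes with at least 5 CPM in 1 line, those nearest to Gpc6 by distance in log2(CPM + 1) over the 3 lines were Prune2 (884 CPM in N2a, with 48.6 in NIH/3T3 and 49.3 in mESCs), Avl9 (506, 41.8 and 65.5 CPM, in that order of lines) and Peg3 (682, 22.6 and 48.5 CPM).

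Gpc5, the glypican next to Gpc6 on chromosome 14, had the same order of lines. It read 37.8 CPM (35.0 to 40.7) in N2a, 11.2 CPM (9.41 to 13.2) in mESCs and 1.03 CPM (0.530 to 1.79) in NIH/3T3. The NIH/3T3 value rested on 12 UMIs.

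Gpc1, a modulator of FGF signalling, stood at 116 CPM (110 to 122) in NIH/3T3 and 34.9 CPM (32.2 to 37.8) in N2a. In mESCs it read 10.4 CPM (8.67 to 12.4). Its NIH/3T3 wells (77.4 to 164 CPM) did not overlap those of N2a (14.2 to 51.6 CPM), which in turn overlapped those of mESCs (0 to 23.2 CPM).

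Gpc3, a regulator of Hedgehog and Wnt signalling, and Gpc4 form the X-linked pair and were mESC genes in these data. Gpc4 read 109 CPM (104 to 115) in mESCs, 0.111 CPM in N2a (2 UMIs) and 0.427 CPM in NIH/3T3 (5 UMIs). Gpc3 read 50.5 CPM (46.6 to 54.6) in mESCs, 0.278 CPM in N2a (5 UMIs) and 0.684 CPM in NIH/3T3 (8 UMIs). In N2a and NIH/3T3 both genes were thus at 0.102% to 1.36% of their mESC level, beside 0.0592% and 0.0908% for the pluripotency gene Zfp42 and 0.385% and 0.148% for Pou5f1.

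Gpc2, a glypican of the developing nervous system, had the lowest count of the family in each line, also per exonic base. It had 45 UMIs in mESCs (3.65 CPM, 2.66 to 4.89) and 0 UMIs in N2a and NIH/3T3, with exact upper limits of 0.205 and 0.315 CPM. These limits do not cover the overlap with Gm43720 on the same strand, so 0 UMIs need not mean that Gpc2 was absent. The mESC value was 21.9-fold and 14.2-fold above a floor of 3 counts in these lines (0.167 and 0.256 CPM). Those folds leave out the intervals, so they are not strict lower bounds.

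Sdc2, the mesenchymal syndecan, led the syndecans of NIH/3T3 at 235 CPM (226 to 244) in NIH/3T3, against 10.6 CPM (8.82 to 12.5) in mESCs and 0.446 CPM (8 UMIs) in N2a. The NIH/3T3 wells ran from 162 to 340 CPM and the mESC wells from 0 to 20.3 CPM. The N2a level was 0.190% of that of NIH/3T3, as low as that of the caveolae gene Cav1 there (0.191%).

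Sdc1, best known from epithelia and plasma cells, was the syndecan most evenly shared. It read 63.4 CPM (58.9 to 68.2) in NIH/3T3 and 27.6 CPM (25.3 to 30.2) in N2a, while mESCs had 11.6 CPM (9.78 to 13.7). The wells of neighbouring lines overlapped: 35.3 to 98.6 CPM in NIH/3T3, 12.1 to 40.9 CPM in N2a and 0 to 20.6 CPM in mESCs.

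Sdc3, the neuronal syndecan, read 15.8 CPM (14 to 17.7) in N2a, 7.47 CPM (6.02 to 9.16) in mESCs and 0.598 CPM (7 UMIs) in NIH/3T3. Sdc4, the syndecan of focal adhesions, read 36.8 CPM (33.4 to 40.5) in NIH/3T3, 24.9 CPM (22.2 to 27.9) in mESCs and 0.835 CPM (15 UMIs) in N2a. Its NIH/3T3 and mESC wells overlapped over most of their range (8.73 to 67.3 and 7.95 to 50.2 CPM).

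Most cells held few member UMIs. When every cell was thinned to 1000 UMIs, which left out 0 cells, Gpc6 was seen in 62.4% (60.4 to 64.3) of N2a cells, 7.53% (6.45 to 8.74) of mESCs and 3.19% (2.47 to 4.05) of NIH/3T3 cells. It was the 1 member found in at least 5% of N2a cells. In NIH/3T3, 3 members passed that share: Sdc2 (19.7%), Gpc1 (9.87%) and Sdc1 (5.06%). In mESCs, 2 did: Gpc4 (9.50%) and Gpc6 (7.53%). The share of all genes seen in at least 5% of cells is not given, so nothing is read from such counts. Without thinning, Gpc6 was seen in 90.7% of N2a cells, 26.5% of mESCs and 16.2% of NIH/3T3 cells, Sdc2 in 62.2% of NIH/3T3 cells and Gpc4 in 35.9% of mESCs. For Gpc4 the other lines gave the share of a gene at or near background: N2a (median depth 6185 UMIs) had it in 0.0861% of cells and NIH/3T3 (4863 UMIs) in 0.245%. Gpc6 is far higher in its own line than Gpc4, and a group of NIH/3T3 cells described below had Gpc6 in 1.77% (0.886 to 3.14) of 622 cells at a median of 5514 UMIs.

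**Figure D3:**
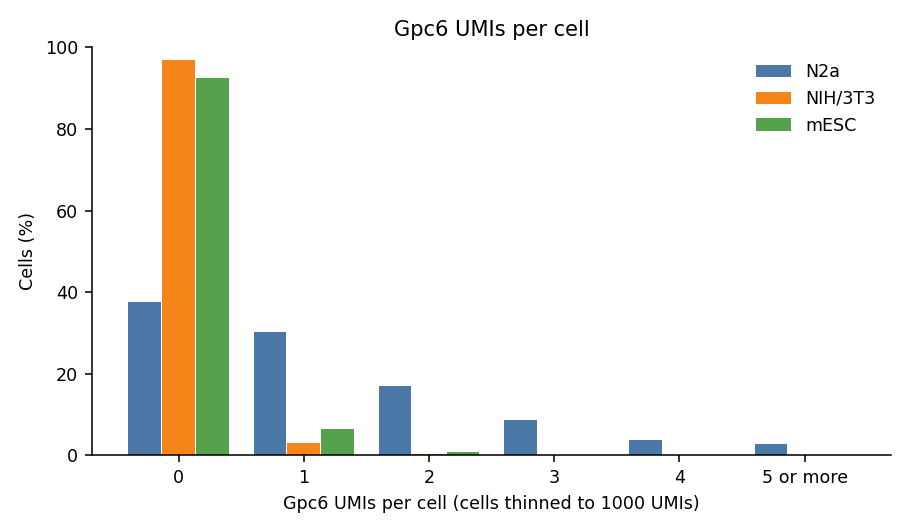
Percentage of cells (y axis) by Gpc6 UMIs per cell (x axis) after each cell was thinned to 1000 UMIs. In N2a 37.6% of cells had none and 2.88% had 5 or more, while 96.8% of NIH/3T3 cells and 92.5% of mESCs had none.

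Gpc6 was spread across the N2a line rather than held by a few cells, but not evenly. Over all kept N2a cells 9.26% had 0 Gpc6 UMIs, where equal levels at each cell's depth would give 2.49%. Of 1629 N2a cells with at least 4000 UMIs, 40 (2.46%, 1.76 to 3.33) had 0 Gpc6 UMIs. Their median was 10 Gpc6 UMIs, and the per-cell level ran from 193 CPM at the 5th to 2700 CPM at the 95th percentile. In the tercile of these cells with the least Gpc6 (503 CPM), Gpc5 read 37.3 CPM (32.2 to 43), and in the tercile with the most (2123 CPM) it read 39.8 CPM (34.6 to 45.6). Gpc1, Sdc1 and Sdc3 likewise had overlapping intervals in these terciles.

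In NIH/3T3, Gpc6 was read beside a block of neighbouring chromosome 14 genes that some cells show at very low levels. Cells thinned to 1000 UMIs had 31.7 Gpc6 CPM (24 to 41.1) where no UMI of the other block genes (Tgds, Gpr180, Abcc4, Dzip1, Dnajc3 and Uggt2) was seen and 54.4 CPM (29 to 93) where at least 1 was, and these intervals overlap. Without thinning the values were 20.4 CPM (17 to 24.3) and 60.2 CPM (53.9 to 67), and the medians of these cells were 4129 and 5858 UMIs. The same split set N2a cells at 1181 CPM (1131 to 1232) and 1313 CPM (1217 to 1414) after thinning and mESCs at 79.3 CPM (65.6 to 95.1) and 103 CPM (79.8 to 130). Without thinning it gave 1132 CPM (1091 to 1173) and 1258 CPM (1241 to 1276) in N2a and 66.6 CPM (54.6 to 80.4) and 94.9 CPM (89.1 to 101) in mESCs. Intervals were thus apart in all 3 lines without thinning and in none after it. Because the block genes give few UMIs per cell, the cells were also clustered without any chromosome 14 gene and without the members.

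Of the 4 clusters, one, with 622 of 2037 cells (30.5%, 28.5 to 32.6), had 11.5 CPM of the 6 other block genes together, against 190 to 199 CPM in the other three. It drew cells from all 32 wells. Gpc6 had 15 UMIs there, 3.68 CPM (2.06 to 6.07), and 53.2 to 67.6 CPM in the other three clusters (58.4 CPM, 53.1 to 64, over all 1415 cells). That low level was 0.297% of the N2a level, where Hand2 in the same cells was at 0.0607% (1 UMI) and Hand2 in the other clusters at 0.389%. Glypicans in the block-low cluster were 95.7% (93.2 to 97.5) Gpc1 and 3.83% (2.16 to 6.23) Gpc6, whereas in the other clusters they were 67.7% (65.3 to 70.2) and 30.7% (28.3 to 33.1). The clusters were made from these same cells, so the contrast is a description.

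The other 4 members above 5 CPM in NIH/3T3 were present in both kinds of cell. Sdc2 read 229 CPM (215 to 244) in the block-low cluster and 238 CPM (227 to 249) elsewhere, and Sdc4 31.9 CPM (26.7 to 37.9) and 39.5 CPM (35.1 to 44.2). Gpc1 was lower in the block-low cluster, at 92.1 CPM (83 to 102) against 129 CPM (121 to 137). Sdc1 was higher, at 78.1 CPM (69.7 to 87.1) against 55.6 CPM (50.4 to 61.2). The 3 other clusters ran from 116 to 135 CPM for Gpc1 and from 45.6 to 63.4 CPM for Sdc1, so the value of the block-low cluster lay outside both ranges. Its intervals overlapped those of 1 other cluster for each gene, at 101 to 133 CPM for Gpc1 and 55.2 to 72.4 CPM for Sdc1.

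**Figure D4:**
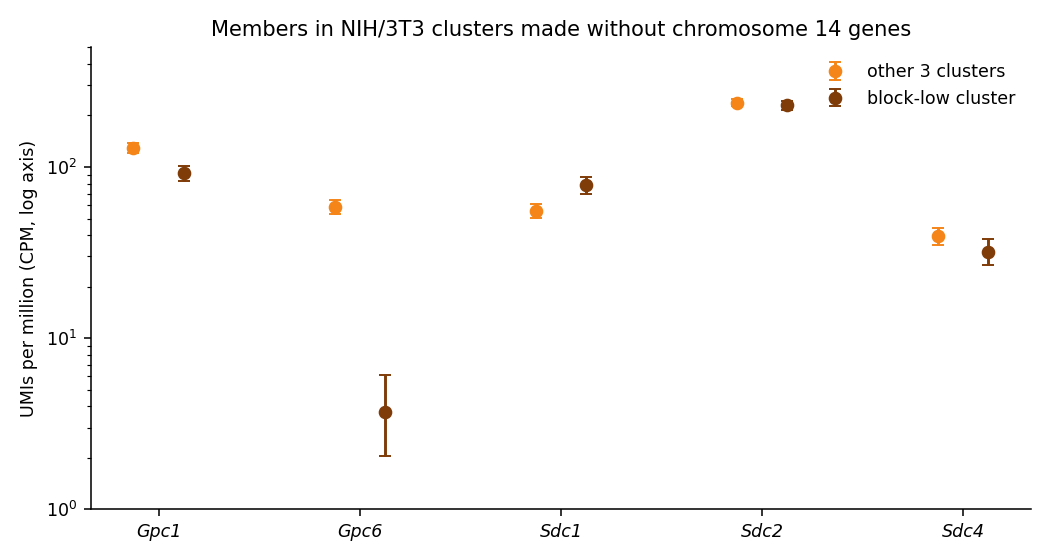
Levels in CPM (y axis, log scale) of the 5 members above 5 CPM in NIH/3T3, in the block-low cluster (622 cells) and in the other 3 clusters together (1415 cells), with 95% Poisson intervals. Gpc6 reads 3.68 against 58.4 CPM, while Sdc2 and Sdc4 lie close together.

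The 331 NIH/3T3 cells with a Gpc6 UMI were deeper than the 1706 without (medians of 6210 and 4570 UMIs). Among 7482 genes with at least 20 CPM, the 8 with the highest ratio of CPM + 1 in favour of the Gpc6-positive cells were Ncam1 (73.8 against 33.5 CPM), Pdgfrb, Nhsl1, Zfpm2 (583 against 288 CPM), Ror2, Enah, Creb5 and Slit2, with ratios of 1.96 to 2.17. Ratios in favour of the cells without Gpc6, looked up after these values were seen, were larger. The 8 highest were Pcdh7 (0.834 against 39.2 CPM), Gm26861, Cd209c, Cpne8, Grb14, Prl2c3, Nlgn1 (27.9 against 286 CPM) and Stra6, with ratios of 8.64 to 21.9.

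Within mESCs, Gpc5 was unevenly spread, with 138 UMIs in 92 cells and 12 of them in a single cell. A list of 14 genes of the 2-cell stage, among them Zscan4 and Usp17l genes, was applied after these values were seen. The 86 mESCs with at least 3 UMIs of the list (4.02%, 3.23 to 4.95) had 22 Gpc5 UMIs, 52.2 CPM (32.7 to 79.0), and the 1972 cells with 0 UMIs of the list had 9.47 CPM (7.77 to 11.4). Sdc4 also read higher in them, at 45.1 CPM (27.1 to 70.4) against 22.7 CPM (20 to 25.6). Gpc6 and Gpc3 were lower in value, at 52.2 CPM (32.7 to 79.0) against 93.1 CPM (87.6 to 98.9) and at 30.8 CPM (16.4 to 52.7) against 52.1 CPM (48 to 56.4), of which the Gpc3 intervals overlap. These cells held 15.9% (10.3 to 23.1) of all Gpc5 UMIs, and 11 of the 15 mESCs with at least 2 Gpc5 UMIs had none of the list. Of the 86 cells, 11 had Gpc5, and 3 of them held 14 of the 22 UMIs. Without the cells with at least 2 Gpc5 UMIs, the level was 19.7 CPM (8.5 to 38.8, from 8 UMIs) with the list and 5.66 CPM (4.36 to 7.23) without it, and the Poisson intervals do not cover this unevenness. With counts thinned to 1000 UMIs, Gpc5 read 93.8 CPM (42.9 to 178, from 9 UMIs) in 96 cells with a UMI of the list and 8.33 CPM (4.85 to 13.3) in the rest. The thinned intervals overlapped for Sdc4, at 72.9 CPM (29.3 to 150) against 28.4 CPM (21.6 to 36.7), and for Gpc6, at 41.7 CPM (11.4 to 107) against 88.7 CPM (76.2 to 103). Gpc4 was lower in value in the list cells without thinning, with overlapping intervals, at 75.9 CPM (51.9 to 107) against 111 CPM (105 to 117). With thinned counts its intervals were apart, at 31.25 CPM (6.4 to 91.3, from 3 UMIs) against 110 CPM (95.85 to 125). The unthinned groups left out 79 mESCs with 1 or 2 UMIs of the list. In these, Sdc4 read 58.6 CPM (39.2 to 84.1) and Gpc5 16.15 CPM (6.975 to 31.8), so Sdc4 was no lower there than in the list cells. The share of all genes with intervals apart by this list is not given.

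**Figure D5:**
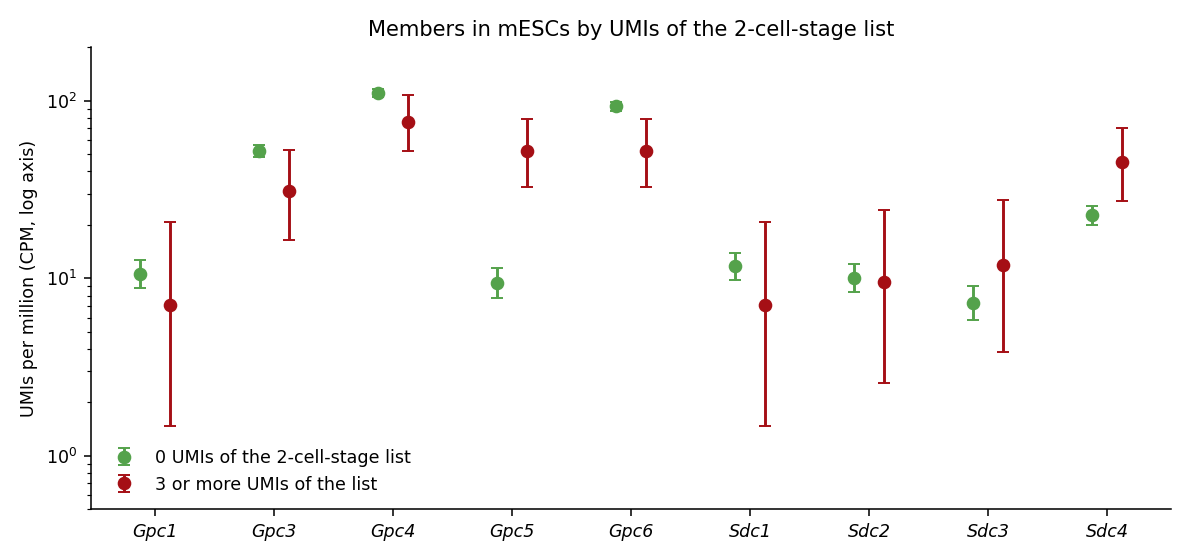
Levels in CPM (y axis, log scale) of 9 members in mESCs with at least 3 UMIs of the 2-cell-stage list (86 cells) and with none (1972 cells), with 95% Poisson intervals. Cells with 1 or 2 UMIs of the list are left out. Gpc5 and Sdc4 have separate intervals with the list cells higher, and Gpc6 with the list cells lower. Of these, only those of Gpc5 stay apart in thinned cells. The Gpc4 intervals overlap here and are apart in thinned cells, with the list cells lower.

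Zfp42, a gene of naive pluripotency, was used to rank the mESCs with at least 4000 UMIs. In the tercile of 429 cells with the least Zfp42, Sdc4 read 37.8 CPM (31.4 to 45.1) and Gpc5 13.8 CPM (10.1 to 18.5), and in the tercile with the most they read 20.7 CPM (16.1 to 26.3) and 3.71 CPM (1.92 to 6.48). Gpc4 went the other way, with 95.5 CPM (85.2 to 107) and 119 CPM (108 to 132). Gpc3 (43.3 and 46.7 CPM) and Gpc6 (98.3 and 94.9 CPM) had overlapping intervals. The Gpc5 values rested on 45 UMIs in 5.128% of the low-Zfp42 cells and 12 UMIs in 2.797% of the high-Zfp42 cells. Over all kept mESCs, single cells held up to 12 Gpc5 and up to 9 Sdc4 UMIs. The Poisson intervals do not cover such unevenness. The share of all genes with intervals apart by this ranking was not tested.

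The cell cycle was examined within lines. Cells of each line were ranked by their share of G2/M UMIs, and the outer terciles were compared for the 19 pairs of member and line with at least 40 UMIs. Intervals were apart for 2 of them, Sdc2 in NIH/3T3 (264 CPM in the lowest and 214 CPM in the highest tercile) and Gpc3 in mESCs (58.6 and 42.4 CPM), beside 13.9% of 32207 pairs of gene and line. With outer quartiles the 2 were Sdc2 in NIH/3T3 again (267 and 217 CPM) and Sdc1 in mESCs (15.6 and 6.59 CPM), beside 14.2% of 30525 pairs. The Gpc3 intervals then overlapped (57.4 and 43.8 CPM). The share is continuous, and 301 to 702 cells of a line lay within 10% of a tercile boundary.

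Of 28 genes of heparan sulfate chain synthesis, 19 reached 5 CPM in a line, and 8 of these were past the fold in at least 1 of the 3 comparisons. Over all genes, 36.5% of the 13000 that reached 5 CPM were past it in at least 1. The highest gene of a list is named by CPM, with no regard to length. Ext1, part of the chain polymerase and the highest of the list, read 374 CPM in mESCs, 699 CPM in N2a and 640 CPM in NIH/3T3 and was past it in none. Xylt1 (a xylosyltransferase that starts chains), Hs3st4, Hs6st1 and Hs6st3 (3-O- and 6-O-sulfotransferases) were higher in mESCs than in both other lines. Hs6st3 read 98.5 CPM (93.1 to 104) there, 4.40 CPM in N2a and 1.97 CPM in NIH/3T3, and Xylt1 read 25.2, 0.0557 and 0.171 CPM. Hs3st3b1 was an N2a gene at 29.8 CPM (27.3 to 32.4), with 4.71 CPM in mESCs and 0 UMIs in NIH/3T3. The other three past the fold were Extl1 (11.8 CPM in N2a, 2.27 in mESCs and 0.427 in NIH/3T3), Ndst3 (0.278, 1.46 and 5.47 CPM in that order) and Extl2, which was lower in mESCs (5.11 CPM) than in N2a (27.8 CPM) and NIH/3T3 (42.5 CPM).

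Of 10 genes listed for the trimming or release of these proteoglycans, 9 reached 5 CPM and 7 were past the fold in at least 1 comparison, beside 36.5% of genes. Sulf1, Sulf2, Hpse2 and Notum were higher in mESCs than in both other lines, and Mmp2, Mmp9 and Mmp14 were higher in NIH/3T3 than in both others. Sulf2, which removes 6-O-sulfate, read 115 CPM (109 to 121) in mESCs, 2.28 CPM in N2a and 1.71 CPM in NIH/3T3, and its paralog Sulf1 25.4, 1.39 and 0 CPM. Notum, an extracellular enzyme known to act on Wnt proteins, read 24.7 CPM in mESCs, 0.278 CPM in N2a and 0.0855 CPM in NIH/3T3. Mmp14, a membrane protease that sheds syndecans, was highest in NIH/3T3 at 81.3 CPM (76.2 to 86.6), with 7.47 CPM in mESCs and 0.111 CPM in N2a. The secreted proteases Mmp2 and Mmp9 read 8.12 and 6.16 CPM in NIH/3T3, 0.223 and 0.446 CPM in N2a, and 1.06 and 0.568 CPM in mESCs. Adam10, a sheddase, read 126, 141 and 79.5 CPM in N2a, NIH/3T3 and mESCs and was not past the fold.

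Of 9 other heparan sulfate carriers, 7 reached 5 CPM and 6 were past the fold at least once, beside the same 36.5% of genes. The testicans Spock1 and Spock2 were N2a genes, at 89.8 CPM (85.5 to 94.3) and 103 CPM (98.8 to 108), against 3.41 and 7.55 CPM in mESCs and 0.171 and 0.769 CPM in NIH/3T3. Cd44, a part-time proteoglycan and hyaluronan receptor, read 356 CPM (346 to 367) in NIH/3T3 and below 1 CPM elsewhere. Col18a1, a basement membrane collagen, read 88.2 CPM in mESCs, 14.6 CPM in NIH/3T3 and 3.73 CPM in N2a. Hspg2 (perlecan) was past it in no comparison, with 96.1 CPM in mESCs, 82.4 CPM in NIH/3T3 and 29.0 CPM in N2a.

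All 8 cytoplasmic partners of syndecans reached 5 CPM, and 3 were past the fold, beside 36.5% of genes. Prkca, the kinase bound by the Sdc4 tail, read 901 CPM (884 to 918) in NIH/3T3, 236 CPM in N2a and 45.9 CPM in mESCs. Sdcbp (syntenin, which binds syndecan tails by its PDZ domains) read 33.2 CPM in mESCs, 157 CPM in N2a and 130 CPM in NIH/3T3. Its paralog Sdcbp2 read 7.71, 23.1 and 4.87 CPM in that order.

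Of 17 heparin-binding ligands, 8 reached 5 CPM in a line and 7 of these were past the fold at least once, beside 36.5% of genes. The remaining gene, Vegfa, read 47.6 CPM in mESCs, 37.1 CPM in N2a and 22.1 CPM in NIH/3T3. The paired cytokines pleiotrophin (Ptn) and midkine (Mdk) were high in different lines. Ptn read 181 CPM (175 to 188) in N2a, 0.568 CPM in mESCs and 0.0855 CPM in NIH/3T3. Mdk read 273 CPM (264 to 282) in mESCs, 1.28 CPM in N2a and 1.11 CPM in NIH/3T3. Fgf4 was an mESC gene at 160 CPM (153 to 168), with 0.390 and 0.342 CPM in N2a and NIH/3T3. Slit2, a guidance ligand that binds heparan sulfate, read 81.2 CPM in mESCs, 48.2 CPM in NIH/3T3 and 0.501 CPM in N2a, while its receptor Robo1 read 172 CPM (165 to 180) in mESCs and below 1 CPM in both other lines.

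Of 11 receptors and binding partners, 9 of which reached 5 CPM, Robo1 and Ptprd (13.1 CPM in mESCs, 4.68 CPM in N2a and 2.48 CPM in NIH/3T3) were the 2 past the fold, beside 36.5% of genes. Fgfr2 had the highest single value of that list, 234 CPM in mESCs, with 81.5 CPM in N2a and 99.9 CPM in NIH/3T3, where Cd81 was higher (120 and 159 CPM). Of the 5 genes that attach GPI anchors, 0 were past it, beside the same 36.5% of genes. Pigk, the catalytic subunit and highest of these, read 94.0, 81.0 and 59.7 CPM in N2a, NIH/3T3 and mESCs.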

How the data were processed

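The 3 lines were pooled after the first barcoding step and sequenced together. According to the study's methods, the authors split reads by BC1 plate position, trimmed them with Cutadapt and counted UMIs with STARsolo on GRCm39 (GENCODE M30). The deposited matrices hold raw UMI counts per gene for every barcode. The feature mode and strand setting are not given in the sources used here, so intronic reads may be part of the counts of long genes such as Gpc6 and Gpc5. The pooled matrix served as an alternative only.

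UMIs were summed over kept cells and scaled to CPM. Intervals (95%, exact) and a floor of 3 counts cover counting error only. Named genes of the pathway lists were up to 4 per list with the largest range of log2(CPM + 1) among those past the fold, plus the highest. Other list genes were named after their values were seen. NIH/3T3 cells were clustered with Scanpy 1.11.5 (Leiden resolution 0.5) without chromosome 14 genes and the members. Cell filters, scaling, gene filters and neighbours were those of the study's UMAP, while the variable-gene method and the Leiden step were not. Exonic lengths and positions came from GENCODE M39, which held 32953 of 33565 gene IDs. Scripts were tested on simulated counts. Doublets were not removed. The members and lists were chosen with earlier results of these data known. Values of 1 further marker, 1 further neighbouring gene and 1 further promoter window are not reported here.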

Additional observations from a re-analysis of the deposited data

Results flagged for a closer look

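The pooled output, made without splitting reads by BC1, held 39508 member UMIs over all barcodes, and the 3 line outputs together held 38490. The 1018 UMIs found in the pooled output alone were picked out because they lie outside the data compared here. They were 2.58% (2.42 to 2.74) of the pooled member UMIs, beside 2.32% for all genes, and 677 of them were Gpc6. Per member the share ran from 1.40% for Gpc3 (0.675 to 2.56) to 4.32% for Sdc4 (3.07 to 5.88).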

How the results depend on the processing

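The leading glypican and syndecan of each line were the same genes under all 7 other choices of cells or matrix and after division by exonic length. That division moved the share of Gpc6 in N2a to 91.9%, of Sdc1 in N2a to 75.6%, of Sdc2 in NIH/3T3 to 54.5% and of Sdc4 in mESCs to 62.6%. It does not allow for intronic reads, which may be part of the counts. Gpc6 spans 1054214 bases and Gpc1 33052, while Sdc2 spans 114515 bases and Sdc1 22872. By UMIs per base of these spans, Sdc1 (742 UMIs) stood above Sdc2 (2744 UMIs) in NIH/3T3, so that leader changed. The other leaders stayed first, but in N2a Gpc6 (22259 UMIs) was only narrowly ahead of Gpc1 (627 UMIs). Whether counts scale with span was not tested. With a fold of 2 in place of 4, 8 members differed between N2a and mESCs. The share of all genes past a fold of 2 is not given, so nothing is read from this count. The number of members in at least 5% of cells followed depth: without thinning it was 7 in mESCs and 5 in each other line, and thinned to 2000 UMIs it was 4 in N2a and 5 in NIH/3T3. Gpc6 in NIH/3T3 cells without a block UMI read 20.4 CPM without thinning, and in the cluster with the lowest block level it read 3.68 CPM at resolution 0.5, 3.69 CPM at 0.3 and 3.45 CPM at 0.8. Of 30 levels, 2 left their interval with equal weight per cell and 1 with all barcodes, all downward. Gpc5 in mESCs with UMIs of the 2-cell-stage list read 44.8 CPM with a minimum of 2 UMIs, 93.8 CPM in thinned cells and 19.7 CPM without the 3 cells with at least 2 Gpc5 UMIs, settings chosen after seeing the data. Depth limits every level below about 1 CPM. By G2/M share, 2 of 19 pairs of member and line had intervals apart in terciles and 2 in quartiles, of which Sdc2 in NIH/3T3 was in both. The shares over all pairs of gene and line were 13.9% and 14.2%. No paired analysis was possible because each line has 1 sample.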

Other observations

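Genes next to the members on the chromosome had like or unlike levels from place to place. Ccdc160, which follows Gpc3 on the X chromosome, read 24.9 CPM in mESCs with 1 and 2 UMIs in N2a and NIH/3T3, so Gpc4, Gpc3 and Ccdc160 were all mESC genes, while Magea14 on the far side of Gpc4 had 4 UMIs in mESCs and 0 elsewhere. Dct, 33261 bases after Gpc6, had 0 UMIs in N2a, where Gpc6 was at 1240 CPM. Sema5a, 224211 bases before Sdc2, read 915 CPM in NIH/3T3, 0.668 CPM in N2a and 2.11 CPM in mESCs, and Cpq after it read 85.3, 1.56 and 10.7 CPM, so the 3 neighbours were all highest in NIH/3T3.

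Cells differed in how many members they showed. Without thinning, 7.10% of N2a, 16.2% of NIH/3T3 and 32.7% of mESC cells had no member UMI, and 47.6%, 52.6% and 34.2% had at least 2 members, up to 5, 5 and 6 of the 10. After thinning to 1000 UMIs the shares with none were 33.1%, 63.4% and 74.2%.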
